A study of Mus musculus with 2 samples.

Results

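The regions described here are the input peaks on the autosomes of DP thymocytes, that is, places where chromatin sequenced without antibody gave a peak. DP thymocytes are the T-cell precursors that carry both CD4 and CD8. The input list held 740 peaks, and the 528 on chromosomes 1 to 19 were taken as members; the remaining 210 lay on chromosomes X and Y and 2 on the mitochondrial chromosome. The input library and the Runx1 ChIP library came from CD4+ CD8+ cells of the thymus of C57BL/6 mice, sorted magnetically from mice killed at 4 to 6 weeks of age. The labels name no genetic change or treatment and give no number of animals. Both libraries went through 15 cycles of PCR and SOLiD sequencing, and 10 µg of antibody against Runx1 was used for the ChIP. The labels and the study's methods give different catalogue numbers for that antibody. Without replicate libraries, each p-value below describes the peaks of these lists and not the conditions, and depth is unknown because the lists hold no read counts. Each list gives a position and a score per peak, with no name for the score. All input peaks were 171 bp wide. Cell identity could not be checked against marker genes, since the lists measure DNA and not RNA.

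An input library is chromatin that was fragmented and sequenced without an antibody, and it serves as the background against which ChIP peaks are called. Reads pile up in it where fragments are recovered more often, or where the assembly holds fewer copies of a sequence than the genome does. The best known sequences of the second kind in the mouse are the satellite arrays. Major satellite fills the pericentromeric heterochromatin, and minor satellite, which carries the binding site of the centromere protein CENP-B, lies at the centromere itself. All mouse autosomes have their centromere near one end, so the first known bases of each assembled chromosome lie next to these arrays. Other repeats, above all the copies of retrotransposons, are scattered over all chromosomes, and a short read from such a copy can be assigned to a single place only where the copy differs from all others.

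Sequences at the members with the highest scores are given first, because much of what follows turns on them. They were read from NCBIM37 (mm9), on the plus strand. The members ranked 1, 2 and 4 by score are shown; that ranked 3, which held no repeated run of 32 bases and is described below, is left without its letters. The first lies in an intron of the gene model Gm10801, where capitals mark a word of 12 bases that stood in 36 of 51 members resembling a satellite array (defined below), in 4 of the other 477 members and in 0 of 3438 autosomal Runx1 peaks, read on both strands. The word was taken from these data, so its counts describe these members and are no test of them. The second member lies close to the first, near Gm10800. Its capitals mark a match to the CENP-B box (TTCG, any 4 bases, A, any 2 bases and CGGG, searched on both strands). The other lies in an intron of Cdk5rap2, a gene for a centrosomal protein, and its capitals mark the longest run, of 30 bases, that also stands in the array at the start of chromosome 9.
chr2:98503858-98504028, score 113: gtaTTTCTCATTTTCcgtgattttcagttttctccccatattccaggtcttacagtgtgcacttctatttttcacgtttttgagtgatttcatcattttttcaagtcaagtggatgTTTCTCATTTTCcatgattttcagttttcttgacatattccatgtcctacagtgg
chr2:98505099-98505269, score 111: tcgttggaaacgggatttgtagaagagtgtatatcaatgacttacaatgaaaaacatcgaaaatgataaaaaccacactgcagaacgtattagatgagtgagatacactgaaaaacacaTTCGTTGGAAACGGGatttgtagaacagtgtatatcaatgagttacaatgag
chr4:70039167-70039337, score 85: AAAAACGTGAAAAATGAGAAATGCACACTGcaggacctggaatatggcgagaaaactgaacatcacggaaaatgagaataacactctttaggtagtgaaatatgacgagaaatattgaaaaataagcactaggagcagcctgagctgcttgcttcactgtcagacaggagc

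The scores of the members ran from 6 to 113, with a median of 10 and quartiles of 8 and 15. Scores were heavily tied, with 90 members at 10, 87 at 8 and 73 at 7. Thus 214 members lay between 6 and 9, 178 between 10 and 14, 48 between 15 and 19, 43 between 20 and 39, and 45 at 40 or more. The list ended at a score of 6, which 2 members had. The 210 input peaks on chromosomes X and Y had a median score of 14, with a range from 7 to 159.

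Of the 10 members with the highest scores, 5 lay within 5 kb of the TSS of a protein-coding gene, and 4 of these at gene models with a Gm symbol. Behind the Gm10801 and Gm10800 peaks came chr18:40467811-40467981, with a score of 101, in an intron of Kctd16, which encodes an auxiliary subunit of GABA-B receptors. No run of 32 bases within that peak occurred elsewhere in the assembly. The Cdk5rap2 peak followed at 85, and then chr8:24206011-24206181 at 79, which was centred 477 bp upstream of a TSS of Ank1, the gene of a protein that links the membrane to the spectrin skeleton. At chr17:36621699-36621869 the score was 77 and every run of 32 bases occurred more than once, with a median of 95 copies. This peak lay 22505 bp upstream of H2-M10.4, a non-classical class I gene of the major histocompatibility complex. A pair of members shared a score of 76. The peak at chr2:181652338-181652508 held only single-copy sequence and lay 95664 bp from the last known base of chromosome 2, with Polr3k, a subunit gene of RNA polymerase III, as its nearest gene. The peak at chr11:3001202-3001372 lay 1286 bp from the first known base of chromosome 11, and the nearest TSS, 86071 bp away, was that of Sfi1, a gene of the centrosome. The last of the 10 were chr9:3026596-3026766, at 70, and chr2:98502338-98502508, again in Gm10801, at 69.

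Some members gathered, while most had no other member within 100 kb. Centres of neighbouring members on a chromosome were a median of 2.12 Mb apart, against a mean spacing of 4.53 Mb, and 103 of 509 neighbouring pairs lay within 10 kb. Linking members with centres within 100 kb of each other gave 408 groups, of which 344 were single members and 64 held at least 2, with 184 members in all. Of these 64 gatherings, 41 were pairs and 11 held 4 or more.

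The gathering with the most members lay at the very start of chromosome 9. It held 18 members between 3000003 and 3038457, the first of them centred 87 bp from the first known base, with scores from 17 to 70. All 18 fell among or beside predicted protein-coding genes with Gm symbols and a lincRNA, Gm16869. Within these 38455 bp, bases 234 bp apart were the same in 71.3% of positions, more than at any other shift between 10 and 600 bp, and at 468 bp the share was 59.3%. A repeat unit of that length is the one known for major satellite. The second gathering, chr5:126311518-126328210, held 8 members with scores from 10 to 28, which were mostly single-copy. The third, chr1:87487877-87521819, held 6 members with scores from 8 to 19 at Sp110 and Sp140, genes of nuclear body proteins, and a median of 94.3% of the runs of 32 bases in these peaks occurred more than once. The fourth, chr18:3005866-3010483, held 5 members with scores from 20 to 42, the first of them centred 5950 bp from the first known base. The fifth, chr3:8227394-8246503, held 5 members with scores from 7 to 37 and lay in no annotated gene. The peaks in Gm10801 and beside Gm10800 formed a gathering of 4 within 2932 bp, with scores from 67 to 113.

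Whether members gathered more than Runx1 peaks depended on the distance considered. Within 100 kb, another peak of the same list was found for 184 of 528 members, or 34.8% (exact Clopper-Pearson 95% interval 30.8 to 39.1%), and for 1522 of 3438 autosomal Runx1 peaks, or 44.3% (42.6 to 45.9%). The odds ratio was 0.673 (p = 4.8e-05, Fisher's exact test, two-sided; adjusted p = 7.9e-05 over the 10 tests made here by the method of Benjamini and Hochberg). The Runx1 list is longer. Against the 528 Runx1 peaks with the highest scores the direction turned, with 34.8% of members and 17.4% of Runx1 peaks (p = 1.4e-10, Fisher's exact test). It turned as well within 10 kb, where 30.1% of members and 13.5% of all Runx1 peaks had a neighbour (p = 1.6e-19, Fisher's exact test). Within 1 kb the shares were 14.6% and 2.41%, and within 1 Mb they were 57.6% and 92.9%.

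**Figure D1:**
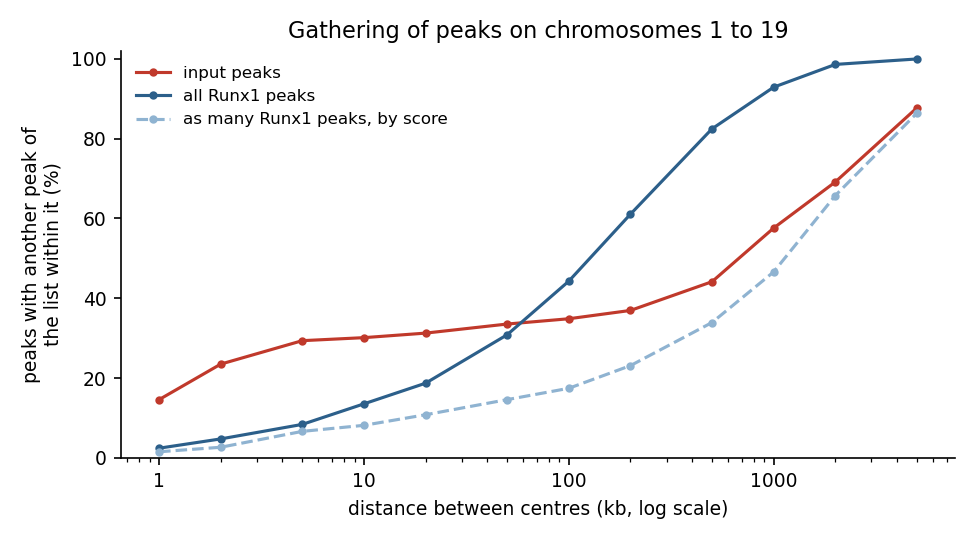
Share of peaks (y axis, %) with another peak of the same list within a given distance between centres (x axis, kb, log scale), for the 528 input peaks on chromosomes 1 to 19, the 3438 Runx1 peaks and the 528 Runx1 peaks with the highest scores. The curve of the input peaks is nearly flat from 10 kb (30.1%) to 100 kb (34.8%), and that of all Runx1 peaks crosses it between 50 and 100 kb.

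By chromosome, members numbered from 10 on chromosome 19 to 47 on chromosome 9. Per Mb of known sequence the density ran from 0.126 on chromosome 10 to 0.389 on chromosome 9, with 0.272 on chromosome 17 as the next highest. Members were seen close to the ends of the assembly. Of the 528 members, 61 (11.6%, interval 8.95 to 14.6%) were centred within 1 Mb of the first or last known base of their chromosome, windows that make up 1.59% of the known autosomal bases. Of the Runx1 peaks, 49 (1.43%, interval 1.06 to 1.88%) were. Leaving out chromosome 9, the count was 42 of 481 members, or 8.73%. The first member lay within 20 kb of the first known base on chromosomes 3, 4, 9, 11, 17 and 18, and the last member of chromosome 13 lay 193 bp from the last. Among members with a score of 40 or more, 19 of 45 lay within 1 Mb of an end, and 8 of 34 without the stretch at the start of chromosome 9. The window was set after the positions had been seen, and no test was made.

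To describe sequence, members were sorted into 4 classes, chosen after the values were seen, so that no test was made on them. Array-like members matched the 38455 bp at the start of chromosome 9 over at least 100 bp. Among the others, many-copy members had a median of at least 100 exact genomic copies per run of 32 bases, few-copy members had fewer copies but over 50% of their runs repeated, and the rest are called mostly unique. There were 51 array-like members (9.66%), 166 many-copy members (31.4%), 113 few-copy members (21.4%) and 198 mostly unique members (37.5%).

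The array-like class held most of the high scores. Its scores ran from 10 to 113 with a median of 49, whereas the medians of the 3 other classes were all 10. Array-like members made up 0 of 214 members with scores from 6 to 9, 3 of 178 from 10 to 14, 5 of 48 from 15 to 19, 11 of 43 from 20 to 39 and 32 of 45 at 40 or more. Of these 45, 34 lay outside the chromosome 9 stretch that defines the class, and 13 of the 34 were not array-like. Array-like members lay on 16 chromosomes, 19 of them on chromosome 9. Their median GC content was 35.7%, against 46.2% for the many-copy class. The 33 outside the chromosome 9 stretch matched it with identities from 71.4 to 97.3%, with a median of 82.4%. Exact copies were few, as the number of copies of a run of 32 bases, taken as the median within each member, had a median of 1 over the class. Moreover, 26 of the 51 lay within 1 Mb of an end, 18 of them in the chromosome 9 stretch that defines the class; outside it the count was 8 of 33. None of the 51 was overlapped by a Runx1 peak, against 34 of all 528 members (6.44%). The peak calling given in the study's methods asks for enrichment over input, and its part in this count was not tested.

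**Figure D2:**
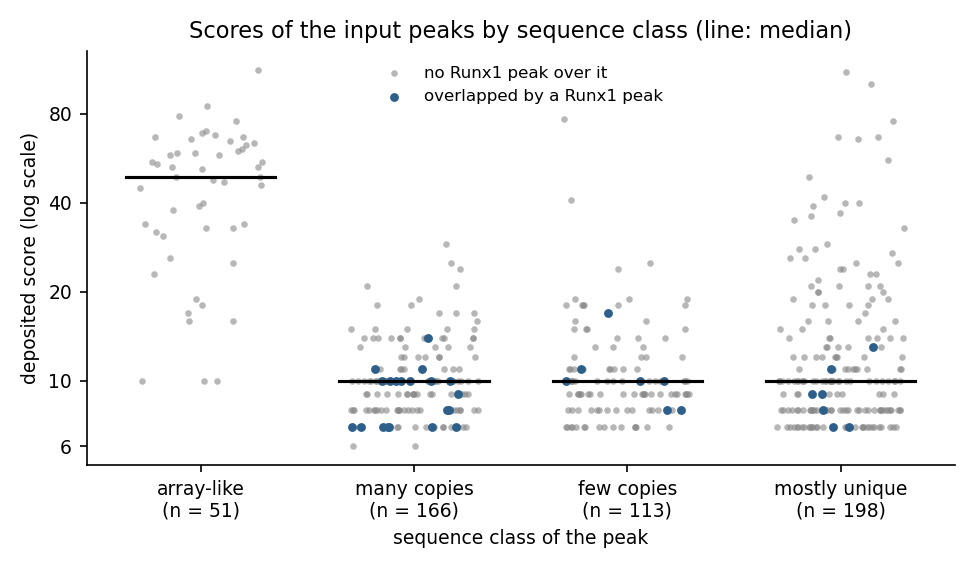
Deposited score (y axis, log scale) of each of the 528 input peaks by sequence class (x axis), with a line at the median and blue points for peaks overlapped by a Runx1 peak. Array-like peaks have a median score of 49 and the other classes of 10, and the 34 blue points all lie between 7 and 17.

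Of the 45 members with a score of 40 or more, 13 were not array-like, and they were singled out after their values were seen. Those at Gm10800, in Kctd16, near H2-M10.4 and near the end of chromosome 2 were described above. A further member in Gm10801, at chr2:98502836-98503006, scored 67, as did chr15:74917298-74917468, near Ly6c2, a gene of a lymphocyte and myeloid surface protein. The member at chr5:105356932-105357102, near Gm3209, scored 66. On chromosome 17 a pair of members, at 39980224 and 39983318, scored 49 and 41 and lay beside the pseudogene AY036118, the first with a GC content of 60.2%. The first member of the gathering at the start of chromosome 18 scored 42, and the members near Maml2 and in an intron of Fbxw4, at chr19:45724558-45724728, scored 40. The last of the 13, chr9:24346446-24346616, scored 56 and held a match to the CENP-B box. This match to the CENP-B box stood in 3 members in all, namely the Gm10800 peak shown above, the one just named and chr6:103599028-103599198, which scored 33, in 0 of the windows 1 kb away and in 0 of 3438 Runx1 peaks. Of the 13, the member at chr2:98502836 matched the chromosome 9 stretch over 22 bp, and no match to it was found for those at Gm10800 and at chr9:24346446, but all 3 fell in the same family by sequence as 50 array-like members, the family of 55 described next.

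The scores of many-copy members ran from 6 to 29 with a median of 10. They made up 76 of 214 members with scores from 6 to 9, 73 of 178 from 10 to 14, 12 of 48 from 15 to 19, 5 of 43 from 20 to 39 and 0 of 45 at 40 or more. Mostly unique members numbered 83, 64, 15, 25 and 11 in the same ranges and reached a score of 111. The many-copy members lay on all 19 chromosomes, their median number of copies per run of 32 bases had a median of 666 and a maximum of 1486, and 134 of 166 lay outside annotated genes. These repeats resembled each other across chromosomes. Joining members that matched over at least 100 bp with at least 80% identity gave 35 families with 323 of the 528 members (61.2%). The most numerous family held 50 of the 51 array-like members and 5 mostly unique ones, 55 in all on 16 chromosomes, with a median score of 52. The next 4 held 46, 26, 22 and 19 members on 13 to 16 chromosomes each, with median scores from 8 to 11. No repeat annotation was used, so these families are given without names.

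The pair of members from different chromosomes most alike in sequence is shown to let the extent of this likeness be seen. The 2 peaks matched over 168 bp at 98.8% identity, and capitals mark the 2 bases that differ. The first is given on the plus strand and the second on the minus strand, from the first to the last aligned base. Runs of 32 bases in these peaks had a median of 1128 copies in both.
chr1:113152177-113152347, score 15: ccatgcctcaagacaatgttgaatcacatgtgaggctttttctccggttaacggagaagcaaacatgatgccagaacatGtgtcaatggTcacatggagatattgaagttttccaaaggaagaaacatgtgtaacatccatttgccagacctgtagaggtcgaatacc
chr7:78697511-78697681, score 10: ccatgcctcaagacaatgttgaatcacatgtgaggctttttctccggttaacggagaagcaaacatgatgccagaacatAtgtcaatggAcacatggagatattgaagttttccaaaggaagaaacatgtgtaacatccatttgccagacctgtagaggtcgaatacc

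Members were richer in repeated sequence than Runx1 peaks. The assembly held further copies, on either strand, of the central 32 bases of 150 of 528 members, or 28.4% (24.6 to 32.5%), and of 375 of 3438 Runx1 peaks, or 10.9% (9.88 to 12.0%), an odds ratio of 3.24 (adjusted p = 9.0e-23, Fisher's exact test). Over the whole peak the contrast was wider. At least 1 repeated run of 32 bases stood in 93.2% of members and 28.2% of Runx1 peaks, and a further match of at least 90% identity over at least 80% of the peak was found for 72.7% and 19.8%. Among the input peaks on X and Y, 62 of 210 had a repeated centre, or 29.5% (23.4 to 36.2%; odds ratio 0.947, adjusted p = 0.79, Fisher's exact test).

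The centre of the members was less often repeated than the sequence close by. At 1 kb upstream on the plus strand the 32 bases were repeated in 294 of the 522 members with known bases there, or 56.3% (51.9 to 60.6%), against 149, or 28.5% (24.7 to 32.6%), at the centre of the same peaks. The centre alone was repeated in 50 members and the flank alone in 195 (adjusted p = 1.0e-20, exact McNemar test, two-sided). On the other side, at 1 kb, the share was 57.4%. Farther away the contrast was gone, with a repeated flank in 29.1% of members at 5 kb and 29.3% at 10 kb (p = 1 for both, exact McNemar test). The dip was narrow. The share was 58.7% at 50 bp and 55.5% at 25 bp on the upstream side of the centre, 28.4% at the centre itself, and 53.2% and 57.3% at 25 and 50 bp on the other side. Taken over any 32 bases in the window, the direction was the opposite, with a repeated run in 93.7% of peaks and 77.0% of flanks at 1 kb. Runx1 peaks had a dip too, from 17.8% at 50 bp upstream to 10.9% at the centre.

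**Figure D3:**
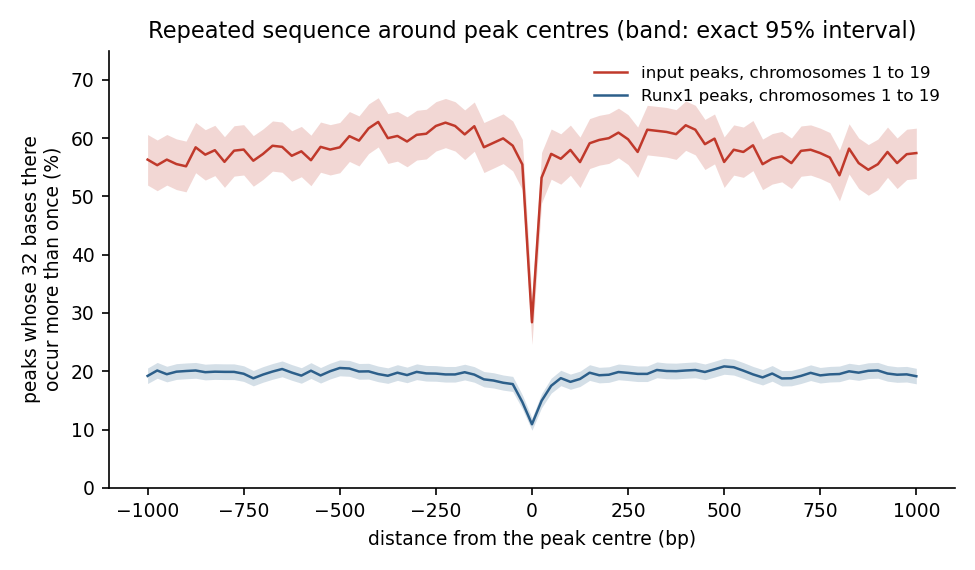
Share of peaks (y axis, %) whose 32 bases at a given distance from the peak centre (x axis, bp) occur more than once in the assembly, with exact 95% intervals as bands. Input peaks fall from 55.5% at 25 bp upstream to 28.4% at the centre, and Runx1 peaks stand lower throughout, with 10.9% at the centre.

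The dip had a counterpart at the level of single bases. In 106 of 528 members exactly 32 of the 140 runs of 32 bases in the peak were single-copy, which made this the most frequent number; 36 members had all runs single-copy and 20 had none. A series of exactly 32 consecutive single-copy runs arises where a single base, contained in all of them, sets the place apart from every other copy. Such an own base lay within the peak in 235 members, or 44.5% (40.2 to 48.9%), and within 10 bp of its centre in 109, or 20.6% (17.3 to 24.4%). In the windows 1 kb away the counts were 66 and 10, or 12.5% and 1.89%. Where several stood in a window the one nearest to the centre was taken, in both. Of the 235, those within 10 bp of the centre made up 46.4%, although these 21 bases are 12.3% of the width. In 227 of the 235, the 32 bases with only the own base changed were found elsewhere, in a median of 633 copies for the most frequent change. Among Runx1 peaks 376 of 3438 (10.9%) had an own base within 85 bp of the centre, and 132 (3.84%) within 10 bp. This measure was chosen after the sequences had been seen and was not tested. The study's methods state, in the section on RNA-seq, that reads matching several places were rejected from all experiments. The section on ChIP-seq does not name such reads and refers to earlier work for part of its analysis. The part of such a rejection in the dip was not tested.

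**Figure D4:**
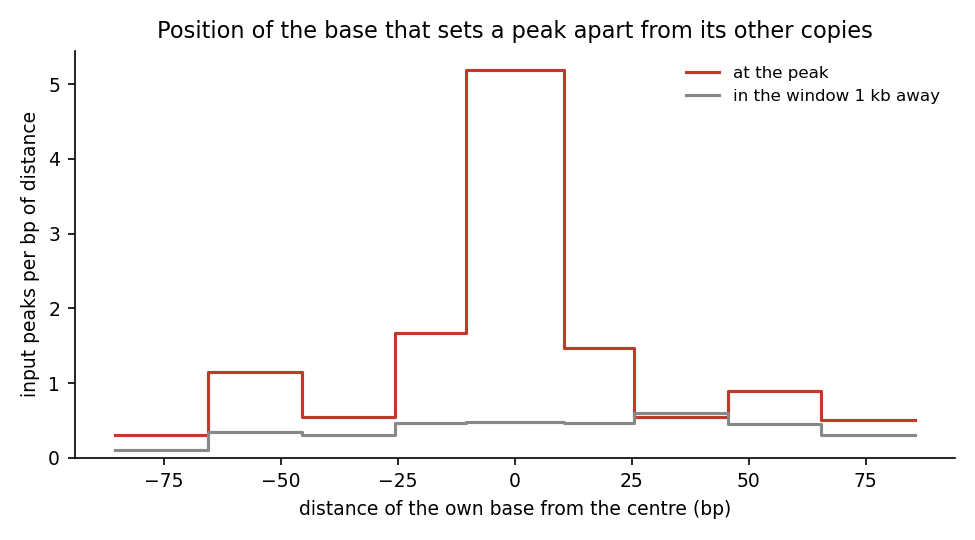
Number of input peaks per bp of distance (y axis) whose own base lies at a given distance from the centre (x axis, bp), at the peak and in the window of the same width 1 kb away. At the peak 109 members have it within 10 bp of the centre, and in the window 10 have.

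Members lay farther from genes than Runx1 peaks did. Their centres were within 5 kb of the TSS of a protein-coding gene in 58 of 528 cases, or 11.0% (8.45 to 14.0%), against 989 of 3438 Runx1 peaks, or 28.8% (27.3 to 30.3%), an odds ratio of 0.306 (adjusted p = 7.5e-20, Fisher's exact test). Among the 132 members ranked highest by score the share was 23.5%, and the difference from Runx1 peaks did not pass the test (odds ratio 0.760, p = 0.20, Fisher's exact test). With 1 peak kept per chain of peaks within 100 kb it was 6.37%, against 27.7%. The median distance to the nearest such TSS was 60580 bp for members and 18737 bp for Runx1 peaks, and 38.6% and 18.2% lay beyond 100 kb. Outside all annotated genes were 391 members, or 74.1%, compared with 50.6% of Runx1 peaks. Introns of protein-coding genes held 98 members (18.6%), against 36.9% of Runx1 peaks, and their exons 10 (1.89%), against 9.92%. For genes of other kinds the order was the opposite, with 29 members (5.49%) against 2.65% of Runx1 peaks.

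The genes nearest to these 58 members were 43, of which 18 were gene models with a Gm symbol that took 30 of the members. In the array at the start of chromosome 9 lay 18 of the 58, at Gm10722, Gm10721, Gm10720, Gm10719, Gm11167, Gm10718, Gm10717, Gm10106, Gm17535 and Gm10715. Outside it, Ank1 had the member with the highest score at a gene with a descriptive name. Oasl1, which encodes an interferon-induced oligoadenylate synthetase-like protein, had an array-like member centred 752 bp upstream, with a score of 45. Maml2, a co-activator of Notch, had a mostly unique member 1735 bp upstream with a score of 40, in which the 32 bases at the centre occurred 54 times. Litaf had an array-like member 433 bp downstream of its TSS, at 18. Vmn2r102, Vmn1r113 and Vmn1r124, genes of vomeronasal receptors, had members with scores from 9 to 16. Heatr7b1 scored 21. Scores from 9 to 17 were seen at 9230019H11Rik, Gm9479, Tmem125, 3110070M22Rik, Clcn4-2, Nwd1, 4931408C20Rik, Sp140, Gm7120 and Usp33. The Nwd1 member held no repeated run, nor did that of 4931408C20Rik.

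Few genes of any kind had a member. Of all 21418 protein-coding autosomal genes, 129 (0.602%) had one within 5 kb and 2183 (10.2%) had a Runx1 peak. Within 5 kb of any of 35 genes of T-cell identity and signalling, among them Cd4, Cd8a, Cd3e, Rag1, Ptcra, Tcf7, Bcl11b and Lck, lay 0 of 528 members (exact interval 0 to 0.696%), a count that says little beside the low share over all genes; 24 of the 35 had a Runx1 peak. Antigen receptor segments had a member at 2 of 481, namely Ighv8-11, with a score of 18, and Trac. Vomeronasal receptor genes had one at 4 of 326, olfactory receptor genes at 1 of 1243 (Olfr1183) and zinc finger genes named Zfp at 1 of 367 (Zfp277). Genes of histones (70) and genes annotated as rRNA (307) had none, and Sfi1 had none within 5 kb. The rRNA count covers only genes with that annotation. Members stood at 3 of 1331 snRNA genes, 5 of 1458 snoRNA genes, 3 of 1468 miRNA genes and 15 of 4063 pseudogenes. No member matched the mitochondrial chromosome.

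**Figure D5:**
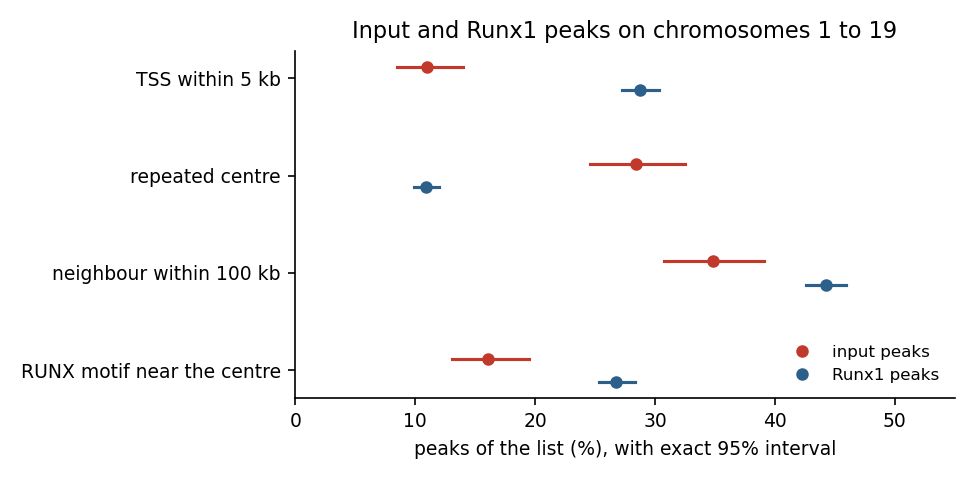
Shares (x axis, %) of the 528 input peaks and the 3438 Runx1 peaks on chromosomes 1 to 19, with exact 95% intervals, that lie within 5 kb of a TSS, have a repeated centre, have a neighbour within 100 kb or hold the RUNX motif near the centre (y axis). Input peaks are lower than Runx1 peaks in all except the repeated centre, with 28.4% against 10.9%; the order for the neighbour turns within 10 kb.

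The test found no difference in GC content between members and their near surroundings. The median was 44.4% at the peak and 43.3% in the window 1 kb away, with more GC at the peak in 254 members and less in 246 (adjusted p = 0.79, exact binomial test, two-sided). Against windows 5 and 10 kb away, with medians of 41.5% and 39.8%, the peak had more in 59.1% and 64.6% of the members that differed (p = 6.2e-05 and 7.8e-11, exact binomial test). The Runx1 peaks had a median GC content of 54.5%.

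A Runx1 peak overlapped 34 of the 528 members by at least 1 bp, or 6.44% (4.50 to 8.88%). Over all 740 input peaks the share was 4.73%. The same windows moved by 10 kb were overlapped in 0 of 528 cases (exact interval 0 to 0.696%; adjusted p = 2.9e-10, exact McNemar test). The 34 made up 0.989% of the 3438 autosomal Runx1 peaks. Their input scores ran from 7 to 17 with a median of 9.5, and the 494 members without a Runx1 peak had a median of 10 and quartiles of 8 and 15. Among members with scores of 20 or more, 0 of 88 were overlapped. The study's methods call transcription factor peaks with HOMER at settings that ask for enrichment over input. Such settings can keep Runx1 peaks off strong input peaks, and their part in these counts was not tested. The Runx1 peaks over the 34 members scored from 16 to 129 with a median of 45.5. The median over all autosomal Runx1 peaks was 18. The scores of the lists are not on a scale known to be shared. The centres of member and Runx1 peak were from 2 to 168 bp apart, with a median of 32 bp.

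By class, 20 of the 34 overlapped members were many-copy, 7 few-copy and 7 mostly unique. The first 2 of these classes together held 27 of the 34 (79.4%) and 279 of all 528 members (52.8%). The overlapped members were 12.0% of the 166 many-copy members, 6.19% of the 113 few-copy members and 3.54% of the 198 mostly unique members. Where the centre was repeated, 16 of 150 members were overlapped, or 10.7% (6.22 to 16.7%), and where it was unique 18 of 378, or 4.76% (2.85 to 7.42%), an odds ratio of 2.39 (p = 0.018, adjusted p = 0.025, Fisher's exact test). This difference no longer passed the test with 1 peak per chain within 10 or 100 kb (p = 0.065 and 0.062), without chromosome 9 (p = 0.066) or when the Runx1 peak had to cover at least 50% of the member (p = 0.24, all Fisher's exact test).

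Of the overlapped members with an own base within 10 bp of the centre, 8 in number, the 3 with the highest input scores are printed, since they show what separates such a place from its copies. Capitals mark the own base. They were chosen after the values had been seen. With that base changed, the 32 bases around it occurred up to 1152, 1629 and 1324 times in the assembly, in the order given. The first lies 68871 bp upstream of Anxa1 and its Runx1 peak scored 94, the second lies 22604 bp downstream of the TSS of Gm1818, with a Runx1 score of 44, and the third lies in an exon of a protein-coding gene, 11323 bp from the TSS of Wdr31, with a Runx1 score of 42.
chr19:20534220-20534390, score 14: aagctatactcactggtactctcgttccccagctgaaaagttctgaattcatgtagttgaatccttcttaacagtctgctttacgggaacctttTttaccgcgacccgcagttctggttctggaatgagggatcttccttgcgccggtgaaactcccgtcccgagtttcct
chr12:49638269-49638439, score 10: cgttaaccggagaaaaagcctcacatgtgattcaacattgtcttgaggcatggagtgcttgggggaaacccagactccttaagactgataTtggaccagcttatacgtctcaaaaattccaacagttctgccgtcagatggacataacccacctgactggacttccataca
chr4:62110034-62110204, score 10: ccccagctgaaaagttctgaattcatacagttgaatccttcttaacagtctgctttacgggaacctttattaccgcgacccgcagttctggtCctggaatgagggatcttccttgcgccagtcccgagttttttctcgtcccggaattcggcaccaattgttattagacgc

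The overlapped member with the highest input score, chr10:7231038-7231208 at 17, also had the highest Runx1 score of the 34, at 129. It lay 4421 bp upstream of 9230019H11Rik and was the only one of the 34 within 5 kb of a protein-coding TSS. Scores of 13 and 11 were reached by chr16:80269600-80269770, chr1:97348573-97348743 and chr17:8888177-8888347, the last in an intron of a protein-coding gene near Pde10a. A score of 11 was also seen at chr5:110626015-110626185, in an intron of Golga3, and at chr9:123782172-123782342. The latter lay 11011 bp upstream of Xcr1, a chemokine receptor gene, and its Runx1 score was 103. Scores of 10 or 9 were seen at chr1:93372821-93372991, near the circadian gene Per2, chr16:41195650-41195820, chr17:92231546-92231716 and chr17:92233853-92234023, chr3:44000288-44000458, chr5:3183287-3183457, chr6:3742300-3742470, chr8:75843525-75843695, chr12:17969048-17969218, chr6:3151437-3151607 and chr6:48071289-48071459. Those on chromosomes 3 and 8 and at chr6:3742300 were few-copy, the other members on chromosome 6 mostly unique, and the rest many-copy. One overlapped member, outside the 20 with the highest scores, is named here after its values were seen. It is chr14:54847111-54847281, with an input score of 8 and a Runx1 score of 80, which lay 4424 bp past the end of Trac, the constant gene of the T-cell receptor alpha chain, and 7958 bp from the gene Dad1. It held no repeated run of 32 bases. The interval between these genes is known to hold the enhancer of the T-cell receptor alpha locus, and no position of that enhancer was available to compare with the peak.

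The share of members with the RUNX motif and that of the windows beside them did not differ past the threshold of the test. TGTGGT, the core of the sequence bound by RUNX proteins, stood on at least 1 strand, at most 100 bp from the centre, in 84 of 519 members with known bases, or 16.2% (13.1 to 19.6%), and in 68 of the same windows 1 kb away, or 13.1% (10.3 to 16.3%; adjusted p = 0.21, exact McNemar test). In Runx1 peaks it was found in 921 of 3438, or 26.8% (25.3 to 28.3%), against 85 of 528 members (odds ratio 0.524, adjusted p = 1.0e-07, Fisher's exact test). Of the 34 members overlapped by a Runx1 peak, those at chr16:80269600 and chr8:70129312 held it, and neither was many-copy. The window at chr9:123782172 holds unknown bases and was not read. A match of these letters is a description of the sequence and not of binding.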

How the data were processed

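The authors deposited, for each of the 2 libraries, peak positions and a score per peak. Per the labels the build is mm9 and HOMER was among the tools. For the transcription factors it compares, the study's methods give HOMER at default settings, which ask for enrichment over input and over the local surroundings. The input list is not named there. In the section on RNA-seq, reads matching several places are rejected from all experiments. Whether that covers these libraries is not stated. Their aligner, how input peaks were called and what the score measures are not given in the sources used here. Positions were made 1-based and read against NCBIM37 (mm9) with GENCODE M1 (Ensembl 65). Exact copies of runs of 25, 32 and 50 bases were counted on both strands of the whole assembly. Inexact matches were found with blastn 2.17.0. Scores were used only within a list. Shares were compared by Fisher's exact, McNemar's exact or binomial tests, two-sided at 0.05, and 95% intervals are exact Clopper-Pearson and cover counting error over peaks only. Peaks of 1 gathering are not independent of each other. Windows with unknown bases were left out of flank comparisons. The members, gene lists and tests were chosen with earlier results of these data known. Named were the 10 members with the highest scores, the 5 gatherings with the most members, the 20 overlapped members and 30 nearby genes with the highest peak scores, and all gene lists. The counting steps were tested on simulated data. Software was Python 3.11.15 with scipy 1.17.1, pysam 0.24.0, numba 0.67.0, pandas 2.3.3, numpy 2.4.6 and matplotlib 3.10.9. A comparison of soft-masked bases was not run, since the reference holds 0 lower-case bases.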

Additional observations from a re-analysis of the deposited data

How the results depend on the processing

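Of 80 alternatives, 61 left the direction and the side of the threshold of their result as they were. Counted with these was the RUNX motif against its flank among the 264 members ranked highest by score, where the difference was 0 percentage points. No paired analysis was possible because there was 1 library per condition, and for the same reason no replicate could be left out. Results that no longer passed the test were the TSS share, at an odds ratio of 0.760 in the upper quartile by score; the gathered share, at 0.987 in that quartile; the Runx1 overlap, at 0.758 percentage points in that quartile; and the overlap by repeated centre, at 2.08 and 2.15 with 1 peak per chain within 10 and 100 kb, 2.06 without chromosome 9 and 1.66 for an overlap of at least 50% of the peak. The repeated centre against its flank came to -0.194 and -0.197 percentage points at 5 and 10 kb, and turned to 16.7 for any 32 bases of the peak. The share of members with more GC than the flank was 47.9% among the 264 members ranked highest by score and 48.3% in the upper quartile, and passed the test at 59.1% and 64.6% against windows 5 and 10 kb away. Gathering turned to odds ratios of 2.75 within 10 kb and 2.53 against as many Runx1 peaks as members. The comparison with X and Y turned to 1.53 for 50 bases, 1.36 for any 32 bases and 1.52 with 1 peak per chain within 100 kb, without passing the test. The cause was not tested. The comparison of soft-masked bases and its 10 alternatives could not be run. The unknown depth limits what a score or the lack of a peak can show.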
